A study of Homo sapiens with 18 samples.

Results

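SOX10 was overexpressed in A375 melanoma cells labelled as carrying a knockout guide against the chromatin factor TADA2B, and the transcripts that moved were read with each of 2 knockout guides. The comparison rests on 12 of the 18 libraries of the series, chosen by their labels: TADA2Bsg1_SOX10OE against TADA2Bsg1, and TADA2Bsg2_SOX10OE against TADA2Bsg2, with 3 libraries in each group. A375 is an established human melanoma line with an activating BRAF mutation, obtained from ATCC and grown in DMEM with fetal bovine serum in all groups. Guide 1 cells and guide 2 cells carried different guide RNAs against TADA2B. The other 6 libraries, used here only for reference, came from A375 cells with a guide against GFP, labelled GFPsg, without and with SOX10. The labels do not say whether a knockout line was 1 clone or a pool, how SOX10 was delivered, or when cells were collected.

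SOX10 is a transcription factor of the neural crest that specifies Schwann cells and melanocytes and binds DNA through an HMG box. In Schwann cells it drives genes of myelin and of neuregulin signalling, and in melanocytes it activates MITF and the melanin enzymes. Low SOX10 in melanoma is known to go with an undifferentiated state rich in EGFR, matrix and inflammatory transcripts. TADA2B is an adaptor of SAGA, a coactivator complex that acetylates histone H3 and removes ubiquitin from histone H2B.

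The 12 knockout libraries held 58.6 to 79.9 M counts each, and 3 counts corresponded to 0.0359 to 0.0493 CPM, the usual count scaled to library size, here with TMM factors. Component 1 of their log CPM held 67.0% of the variance and separated every library with SOX10 from every library without it. Guide 2 replicate 2 stood apart on component 4, which held 3.49% of the variance, and its chi-square per degree of freedom against the other 2 libraries of its group was 11.8 and 10.4, against 4.60 between them. The melanoma markers SOX10, MCAM and CSPG4 were present in every knockout library, whereas the melanocyte antigens PMEL and MLANA reached at most 1.79 and 1.22 CPM. Libraries of a group carry numbers in the labels but are not called separate cultures, so the p-values rest on the spread among these samples alone, and that spread may be technical. In bulk RNA, a lower share of cells expressing a gene and less RNA per cell cannot be told apart.

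The transcript of the targeted gene was read first. TADA2B (ENSG00000173011; hg38 chr4:7041899-7057952) was at 26.1, 25.6 and 26.4 CPM in guide 1 cells and at 23.9, 26.8 and 25.3 CPM with SOX10. It was at 28.6, 27.5 and 30.2 CPM in guide 2 cells and at 27.5, 25.7 and 27.6 CPM with SOX10, and at 32.2 to 32.8 CPM in control cells. All knockout libraries lay below control cells, and with each guide the libraries with SOX10 overlapped those without it. The log2 change with SOX10, averaged over the guides, was −0.068 (SE 0.03, adjusted p = 0.0799). With DESeq2 the adjusted p was 0.0408, with RLE scaling 0.0476, with library-size scaling 0.0450, without replicate 2 of the guide 1 SOX10 group 0.0272 and without guide 2 replicate 2 0.0429. A guide RNA makes small insertions or deletions, and the amount of transcript is no measure of how much protein was lost.

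SOX10 (ENSG00000100146; chr22:37970686-37987422) rose in both lines to a level between that of the knockout and that of control cells. It was at 87.0, 82.6 and 81.2 CPM in guide 1 cells and at 281, 286 and 307 CPM after overexpression. It was at 46.1, 39.9 and 44.1 CPM in guide 2 cells and at 248, 251 and 240 CPM after overexpression. No library with SOX10 overlapped a library without it, and control cells stood at 341 to 364 CPM. The rise was 4.44-fold on average (log2 change 2.15, SE 0.03, adjusted p = 4.37e-34), and larger in guide 2 cells (log2 change 2.50) than in guide 1 cells (1.80, adjusted p of the difference 1.78e-10). The sources used here do not describe the construct, and native and introduced transcripts cannot be told apart in this count.

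A gene was called changed where edgeR's quasi-likelihood test gave a Benjamini-Hochberg adjusted p under 0.05 for the mean of both guides and for each guide alone, all in 1 direction. Of 21060 genes tested, 3925 were called higher with SOX10 (18.6%) and 3764 lower (17.9%), together 36.5%. At least 2-fold, 1217 rose (5.78%) and 838 fell (3.98%), and 1540 of these 2055 genes (9.76%) were protein-coding. Among genes with a mean of at least 1 CPM the 2-fold counts were 618 and 357. Guide 1 alone gave 9205 calls (43.7%) and guide 2 alone 10229 (48.6%). The 7689 genes called in 1 direction by both made up 83.5% of the guide 1 calls and 75.2% of the guide 2 calls, and 21 genes were called in opposite directions. These contrasts share no library, and Pearson's r between their log2 changes was 0.887 over the genes tested. Genes are not independent replicates, so this is a description. The libraries with and without SOX10 did not overlap with either guide for 39.0% of genes, 19.7% higher and 19.4% lower. The plot of the guide 2 change against the guide 1 change shows the genes called in both lines.

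**Figure D1:**
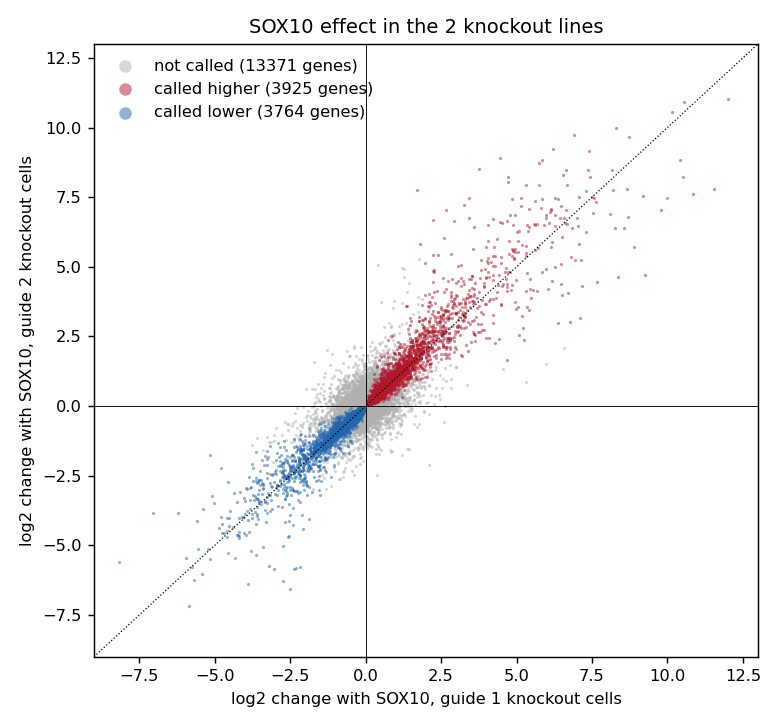
Log2 change with SOX10 in guide 2 cells (vertical axis) against guide 1 cells (horizontal axis), 1 point per gene, 21060 genes. Red points are the 3925 genes called higher, blue points the 3764 called lower, grey points were not called, and the dotted line marks equal changes. The called genes lie along the dotted line in both directions.

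The 12 protein-coding genes with the largest rises were DCT, CD200, CNTN6, KDR, ITIH5, ATP10B, RXRG, ITIH6, ACAN, B3GALT2, FAT3 and RGS8, with log2 changes from 7.48 down to 5.92. They include a melanin enzyme, a neural adhesion molecule, a growth factor receptor and matrix proteins, and all had group means below 1 CPM in both knockout lines without SOX10. The promoters of CD200, ATP10B and KDR are shown because they held the most matches to the SOX letters ACAAAG or ACAATG among the 11 of these genes with an entry in the RefSeq promoter table (GRCh38.p14). RGS8 held 1 match, as did KDR, and KDR is shown as the gene with the larger rise. Each is the 250 bases before the RefSeq start, 5′ to 3′ on the gene's strand, with matches on either strand in capitals: CD200 at chr3:112332906-112333155 on the plus strand, ATP10B at chr5:160852212-160852461 and KDR at chr4:55125596-55125845 on the minus strand.
CD200: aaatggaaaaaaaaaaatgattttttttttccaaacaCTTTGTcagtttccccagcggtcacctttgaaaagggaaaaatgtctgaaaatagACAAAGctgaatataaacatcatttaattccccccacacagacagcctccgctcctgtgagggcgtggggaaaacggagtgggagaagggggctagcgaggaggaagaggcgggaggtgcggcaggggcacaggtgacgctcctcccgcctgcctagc
ATP10B: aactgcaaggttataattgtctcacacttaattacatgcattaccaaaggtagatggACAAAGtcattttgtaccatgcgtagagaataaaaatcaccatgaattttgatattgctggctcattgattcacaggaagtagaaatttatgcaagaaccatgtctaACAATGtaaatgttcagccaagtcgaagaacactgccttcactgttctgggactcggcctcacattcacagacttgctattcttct
KDR: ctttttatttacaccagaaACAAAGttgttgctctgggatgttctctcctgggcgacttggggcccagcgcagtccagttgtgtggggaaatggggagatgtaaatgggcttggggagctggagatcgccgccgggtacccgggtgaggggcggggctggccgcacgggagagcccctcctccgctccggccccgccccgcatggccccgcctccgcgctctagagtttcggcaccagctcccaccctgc

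CD200 held ACAAAG at 158 to 153 bases before the start and its reverse complement at 213 to 208, and this start lies inside the gene as GENCODE 29 draws it. ATP10B held ACAAAG at 193 to 188 bases and ACAATG at 86 to 81 bases before the start, and KDR held ACAAAG at 231 to 226 bases. Either motif was present in 21.4% of all 27305 promoters of the table and in 14.5% of the promoters of genes tested. The share was 24.0% for genes called at least 2-fold higher, 18.2% for those at least 2-fold lower and 14.4% for genes not called. Of the 12 largest rises 4 of 11 promoters with an entry held a match, and of the 12 largest falls 0 of 7 did. A match is a description of these letters and not evidence of binding.

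KDR (ENSG00000128052; chr4:55078259-55125595), the main receptor for vascular endothelial growth factor, was at 0.4998, 0.346 and 0.339 CPM in guide 1 cells and at 27.6, 26.7 and 28.96 CPM with SOX10. In cells with guide 2 it was at 0.263, 0.295 and 0.204 CPM, and at 33.2, 33.2 and 33.1 CPM with SOX10. Every SOX10 library lay far above every other knockout library and above the 2.70 to 3.65 CPM of control cells. The rise was 95.8-fold (log2 change 6.58, SE 0.08, adjusted p = 2.29e-42).

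CD200 (ENSG00000091972; chr3:112332347-112362812), a surface glycoprotein that restrains myeloid cells, was at 0.194, 0.0831 and 0.213 CPM in guide 1 cells and at 14.3, 12.8 and 11.6 CPM with SOX10. It was at 0.132, 0.0737 and 0.0241 CPM in guide 2 cells and at 13.9, 14.7 and 13.3 CPM with SOX10. The groups did not overlap with either guide, and the rise was 117-fold (log2 change 6.87, SE 0.12, adjusted p = 1.12e-36).

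DCT (ENSG00000080166; chr13:94436808-94479682), the melanin enzyme dopachrome tautomerase, was at 0.0417, 0.0277 and 0.1004 CPM in guide 1 cells and at 23.8, 23.7 and 20.8 CPM with SOX10. It was at 0.0479, 0.118 and 0.0722 CPM in guide 2 cells and at 6.77, 6.51 and 6.49 CPM with SOX10. All 6 SOX10 libraries exceeded the 0.979 to 1.04 CPM of control cells, and among the knockout lines those of guide 1 were the highest, while control cells with SOX10 stood at 156 ± 2.74 CPM (SD, n = 3). The mean rise was 179-fold (log2 change 7.48, SE 0.10, adjusted p = 1.81e-40), and it was smaller in guide 2 cells by 2.18 on the log2 scale (adjusted p = 0.00916).

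RXRG (ENSG00000143171; chr1:165400917-165445355), a retinoid X receptor, was at 0.236, 0.291 and 0.402 CPM in guide 1 cells and at 19.8, 20.1 and 19.5 CPM with SOX10. It was at 0.144, 0.0295 and 0.132 CPM in guide 2 cells and at 12.7, 12.2 and 13.1 CPM with SOX10. Control cells, at 7.87 to 8.68 CPM, lay between the groups, and the rise was 85.9-fold (log2 change 6.42, SE 0.09, adjusted p = 1.05e-40). FAT3, an atypical cadherin, was at 0.625, 0.720 and 0.703 CPM in guide 1 cells and at 29.4, 27.5 and 27.5 CPM with SOX10. With guide 2 FAT3 was at 0.431, 0.324 and 0.192 CPM, and at 27.9, 27.9 and 30.5 CPM with SOX10. Its 61.1-fold rise (log2 change 5.93, SE 0.07, adjusted p = 1.65e-42) again left no overlap.

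The other 7 genes of this set had mean levels of 0.0449 to 0.308 CPM without SOX10 and of 5.30 to 15.8 CPM with it. They were the contactin gene CNTN6 (log2 change 6.61), the matrix genes ITIH5 (6.53), ITIH6 (6.38) and ACAN (6.10), the phospholipid flippase gene ATP10B (6.48), the galactosyltransferase gene B3GALT2 (6.06) and RGS8 (5.92), a regulator of G protein signalling. ACAN encodes aggrecan, the large proteoglycan of cartilage. The plot of the largest rises and falls by library shows each of the 12 knockout libraries beside control cells.

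**Figure D2:**
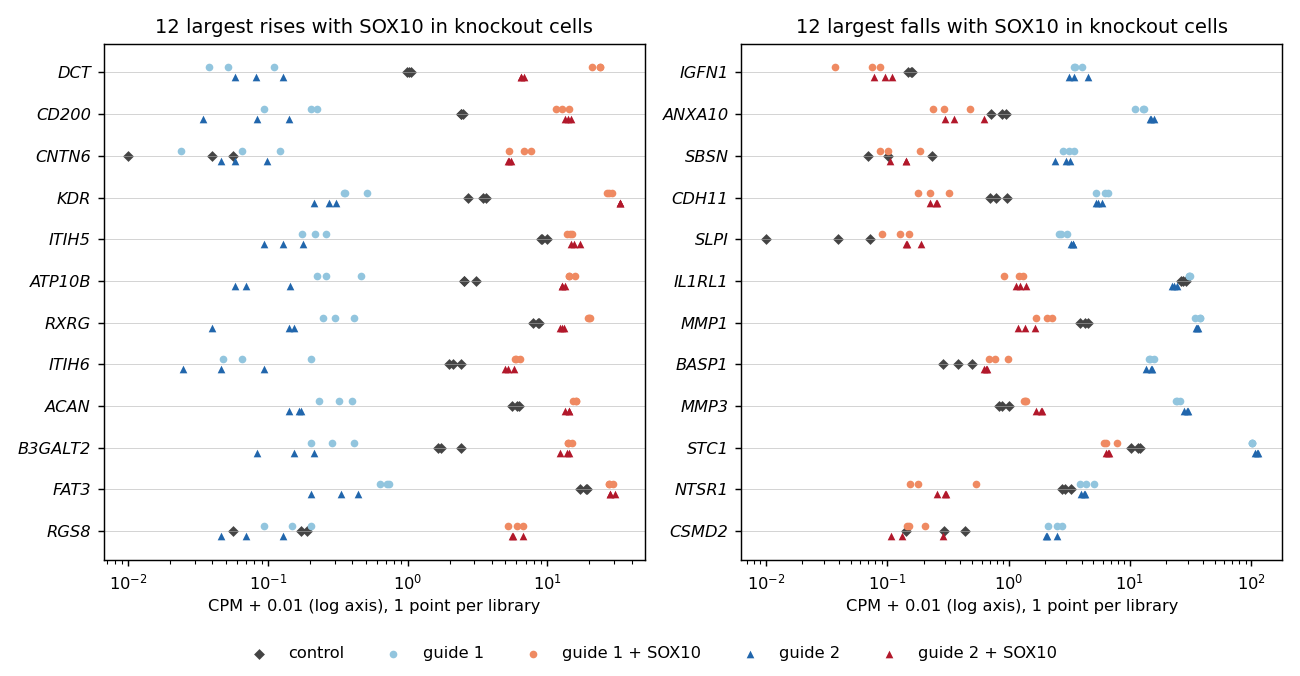
CPM plus 0.01 on a log axis for the 12 largest rises (left) and the 12 largest falls (right), 1 point per library, for control cells, guide 1 and guide 2 cells, and both with SOX10. Only protein-coding genes with separate libraries, at least 1 CPM in the higher group and 10 counts in the lower were ranked. In every gene shown the SOX10 points lie on 1 side of the points without SOX10 of the same guide. For some risen genes, such as KDR, DCT and RXRG, they also lie above control cells.

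The 12 largest falls under the same limits were IGFN1, ANXA10, SBSN, CDH11, SLPI, IL1RL1, MMP1, BASP1, MMP3, STC1, NTSR1 and CSMD2, with log2 changes from −5.71 to −3.85. Secreted proteases, a protease inhibitor, a mesenchymal cadherin and a cytokine receptor were among them. MMP1 (ENSG00000196611; chr11:102789920-102798160), interstitial collagenase, was at 37.9, 34.6 and 37.7 CPM in guide 1 cells and at 2.08, 2.26 and 1.67 CPM with SOX10. In guide 2 cells MMP1 was at 34.9, 36.4 and 35.6 CPM, and at 1.63, 1.37 and 1.18 CPM with SOX10. The SOX10 libraries also lay below the 3.88 to 4.46 CPM of control cells, and the fall was 21.5-fold (log2 change −4.42, SE 0.06, adjusted p = 4.43e-40).

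MMP3 (ENSG00000149968; chr11:102835801-102843803), stromelysin, was at 24.2, 24.2 and 25.7 CPM in guide 1 cells and at 1.36, 1.39 and 1.33 CPM with SOX10. It was at 29.4, 27.9 and 29.9 CPM in guide 2 cells and at 1.66, 1.85 and 1.87 CPM with SOX10. Unlike MMP1, MMP3 stayed above the 0.830 to 0.999 CPM of control cells in every SOX10 library, with a 17.2-fold fall (log2 change −4.10, SE 0.06, adjusted p = 2.16e-39). STC1, the glycoprotein hormone stanniocalcin, was at 100.7, 100.8 and 102 CPM in guide 1 cells and at 7.79, 6.37 and 6.12 CPM with SOX10. With guide 2 STC1 was at 112, 113 and 107 CPM, and at 6.63, 6.77 and 6.33 CPM with SOX10. STC1 started from the highest level of the 12 and fell 15.9-fold (log2 change −3.99, SE 0.04, adjusted p = 9.84e-44).

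IL1RL1 (ENSG00000115602; chr2:102311502-102352037), the receptor for interleukin 33, was at 31.3, 31.0 and 30.8 CPM in guide 1 cells and at 1.29, 0.910 and 1.20 CPM with SOX10. It was at 22.0, 23.3 and 24.7 CPM in guide 2 cells and at 1.15, 1.38 and 1.23 CPM with SOX10. Control cells were at 26.3 to 29.05 CPM, and the mean difference between knockout and control, which uses the same knockout libraries as the SOX10 contrast, was −0.04 on the log2 scale (adjusted p = 0.53). The fall with SOX10 was 22.5-fold in knockout cells (log2 change −4.49, SE 0.06, adjusted p = 3.18e-40), and SOX10 in control cells gave a log2 change of −5.02. IL1RL1 and NTSR1, the neurotensin receptor gene (2.97 CPM in control cells, 4.40 and 4.11 CPM in the knockout lines, 0.279 and 0.275 CPM with SOX10), were the only 2 of the 12 whose mean knockout level was within 2-fold of control.

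CDH11, a mesenchymal cadherin, was at 6.58, 6.19 and 5.24 CPM in guide 1 cells and at 0.310, 0.169 and 0.216 CPM with SOX10. In guide 2 cells CDH11 was at 5.93, 5.29 and 5.41 CPM, and at 0.244, 0.246 and 0.214 CPM with SOX10. The groups did not overlap, and the fall was 24.5-fold (log2 change −4.61, SE 0.14, adjusted p = 1.7e-28). The remaining 7 genes had means of 2.19 to 15.1 CPM without SOX10 and of 0.0565 to 0.810 CPM with it. They were IGFN1, the annexin gene ANXA10, the epidermal gene SBSN, the leukocyte protease inhibitor gene SLPI, BASP1, NTSR1 and CSMD2.

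Some genes went from almost no reads in the knockout lines to clear levels with SOX10. In all, 23 called genes had 3 counts or fewer in the 3 libraries of the lower group and at least 0.5 CPM in the higher group, with each guide. Of these, 22 were higher with SOX10, beside 18.6% of all genes tested called higher and 17.9% lower. Such genes passed the low-count filter only through groups where they are high, so the split is only a description. MOBP, a component of central myelin, went from 2 counts in the 3 guide 1 libraries to 2736, a ratio of 1341 (95% exact counting interval 371 to 11079), and from 2 counts to 3359 in guide 2 cells, a ratio of 1823 (504 to 15061). MUC7, a salivary mucin, went from 1 count to 2096 in guide 1 cells, a ratio of 2055 (368 to 81193), and from 1 count to 2479 in guide 2 cells, a ratio of 2691 (483 to 106334). COL9A1, a cartilage collagen chain, went from 3 counts to 585, a ratio of 191 (65.1 to 930), and from 1 count to 739, a ratio of 802 (144 to 31728). The long noncoding RNA gene ENSG00000283413 was at 0 counts in guide 1 cells and at least 187-fold higher with SOX10, taking 3 counts over the group as the floor, and it went from 2 to 661 counts in guide 2 cells, a ratio of 359 (98.9 to 2969). These intervals and floors cover counting error only.

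Genes of the Schwann cell and neural crest lineage were led by rises. Of 25 members tested 15 rose and 4 fell, with a median log2 change of 0.70 against 0.00 over all genes tested and the 18.6% and 17.9% called over all genes. These values over all genes are the reference for each list below. ERBB3 (ENSG00000065361; chr12:56076799-56103505), the neuregulin receptor, was at 31.3, 31.4 and 29.3 CPM in guide 1 cells and at 160, 160 and 153 CPM with SOX10. ERBB3 was at 14.3, 13.9 and 13.2 CPM in guide 2 cells and at 112, 107 and 104 CPM with SOX10. The groups did not overlap, all SOX10 libraries stayed below the 346 to 363 CPM of control cells, and the rise was 6.33-fold (log2 change 2.66, SE 0.03, adjusted p = 1.34e-43).

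CDH19, a cadherin of Schwann cell precursors, was at 11.9, 13.2 and 13.0 CPM in guide 1 cells and at 124, 121 and 120 CPM with SOX10. With guide 2 CDH19 was at 5.29, 5.94 and 5.71 CPM, and at 120, 114 and 120 CPM with SOX10. All 6 SOX10 libraries lay above the 83.5 to 88.8 CPM of control cells, with a 14.2-fold rise (log2 change 3.82, SE 0.03, adjusted p = 3.69e-48). The calcium-binding protein gene S100B (log2 change 3.39), the transcription factor gene POU3F2 (2.30), the neurotrophin receptor gene NGFR (1.96) and the intermediate filament gene NES (1.17) rose as well. SOX9, a related factor of the neural crest and of cartilage, fell from 19.8 ± 1.09 to 1.87 ± 0.294 CPM in guide 1 cells and from 19.997 ± 1.81 to 2.60 ± 0.0588 CPM in guide 2 cells (SD, n = 3, log2 change −3.18, adjusted p = 9.74e-34). Other neural crest regulators did not pass, with PAX3 at −0.04 and TFAP2A at −0.12.

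Of 14 myelin protein genes tested 11 rose and 0 fell, with a median log2 change of 1.16. PMP2, the lipid carrier of peripheral myelin, was at 0.0125 and 0.0387 CPM in the knockout lines and at 61.7 ± 2.48 and 83.9 ± 7.09 CPM with SOX10 (SD, n = 3), and its guide 1 group without SOX10 held 3 counts, which gives a ratio of 4605 (95% exact counting interval 1575 to 22333). PMP22 (1.45), UGT8, a synthetic enzyme of myelin lipids (1.17), and CNP (0.97) also rose. EGR2, a zinc finger factor of myelinating Schwann cells, rose by 1.14 and reached only 1.47 and 1.21 CPM. MBP, MAG and MAL were among the 8 listed members with too few reads to test.

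Pigment cell genes split. Of 19 melanosome and melanin genes tested 8 rose and 4 fell, with a median log2 change of 0.09, and TYR, SLC45A2 and TRPM1 were among the 7 with too few reads to test. DCT, OCA2 (3.08), the sialyltransferase gene ST3GAL6 (1.40) and the lysosomal glycoprotein gene GPNMB (1.07) rose, while PMEL rose by 0.81 at levels of 1.38 and 1.55 CPM. MITF (ENSG00000187098; chr3:69739435-69968337), the master regulator of melanocytes, was at 84.2, 82.4 and 86.4 CPM in guide 1 cells and at 66.9, 64.9 and 60.7 CPM with SOX10. It was at 89.96, 90.8 and 95.4 CPM in guide 2 cells and at 59.0, 54.5 and 55.5 CPM with SOX10. MITF thus fell in both lines without overlap (log2 change −0.55, SE 0.03, adjusted p = 9.41e-22), whereas in control cells SOX10 raised it from 39.7 ± 0.540 to 85.4 ± 1.77 CPM (log2 change 1.11). The difference of these effects was −1.66 on the log2 scale (adjusted p = 1.35e-28). The lysosomal phosphatase gene ACP5 fell by 0.89 in knockout cells and had a change of 0.54 in control cells.

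**Figure D3:**
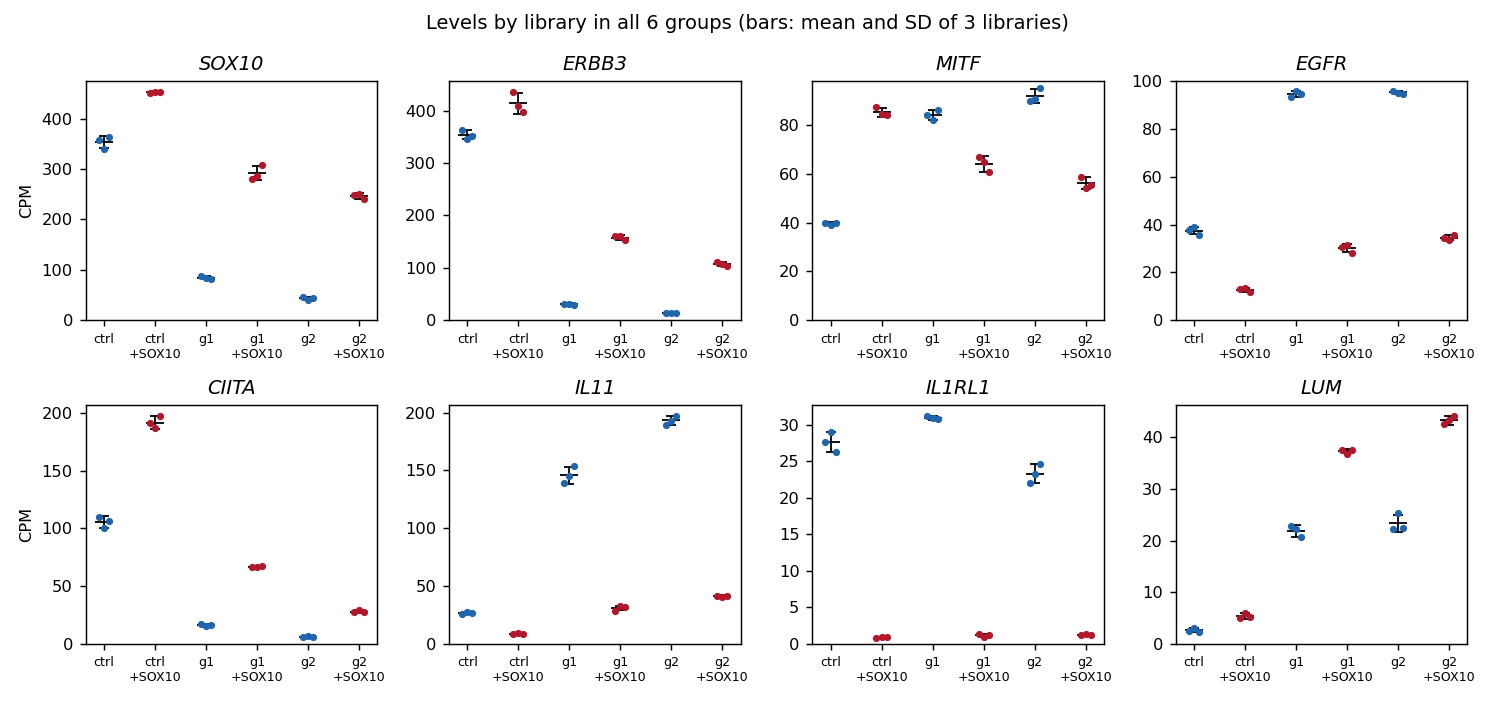
CPM by library for 8 genes in all 6 groups, with points for single libraries and bars for the mean and SD of 3 libraries (ctrl is control, g1 guide 1, g2 guide 2). SOX10 libraries of the knockout lines lie above the same line without SOX10 for SOX10, ERBB3, CIITA and LUM and below it for MITF, EGFR, IL11 and IL1RL1, and MITF moves the other way in control cells.

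Receptor kinase genes moved both ways. Of 23 receptor tyrosine kinase genes tested 12 rose and 7 fell, with a median log2 change of 0.37. EGFR (ENSG00000146648; chr7:55019021-55211628), the epidermal growth factor receptor, was at 93.6, 95.9 and 94.5 CPM in guide 1 cells and at 30.6, 31.5 and 28.2 CPM with SOX10. It was at 95.8, 95.2 and 94.8 CPM in guide 2 cells and at 34.4, 33.7 and 35.5 CPM with SOX10. All SOX10 libraries were below the 35.8 to 38.8 CPM of control cells, and the fall was 2.95-fold (log2 change −1.56, SE 0.03, adjusted p = 6.34e-36). ROS1 fell from 5.59 and 7.26 CPM to 1.14 and 1.66 CPM (log2 change −2.21), the ephrin receptor gene EPHB6 by 3.26, the hepatocyte growth factor receptor gene MET by 0.84 and FGFR1 by 0.82. Besides KDR and ERBB3, the vascular receptor gene FLT1 (3.04), the insulin-like growth factor receptor gene IGF1R (0.79) and ERBB2 (0.30) rose.

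MAPK outputs and feedback genes moved both ways, with 11 of 25 higher and 10 lower (median log2 change 0.12). EPHA4 (1.67), the early response factor gene EGR3 (1.67), CCND1, which encodes a G1 cyclin (0.61), SPRY2, a feedback inhibitor (0.59), and DUSP6, an ERK phosphatase (0.48), rose. DUSP4, another ERK phosphatase gene, fell from 316 ± 2.55 to 150 ± 4.56 CPM in guide 1 cells and from 215 ± 4.33 to 105 ± 3.95 CPM in guide 2 cells (SD, n = 3, log2 change −1.06, adjusted p = 4.04e-35). CCND1 was at 447 and 323 CPM without SOX10 and at 663 and 506 CPM with it, against 1082 CPM in control cells.

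Of 30 genes tied to undifferentiated melanoma with high AXL 15 fell and 8 rose, with a median log2 change of −0.21. The semaphorin and VEGF coreceptor gene NRP1 fell from 158 ± 3.24 to 49.9 ± 1.14 CPM and from 103 ± 2.81 to 33.6 ± 1.13 CPM (SD, n = 3, log2 change −1.63, adjusted p = 6.01e-40). The collagen crosslinking enzyme gene LOXL2 (−1.38), CXCL8 (−1.11) and NT5E (−0.69) fell, and AXL itself fell by 0.25. Among the risers, CCN2 rose by 1.80, the thrombospondin gene THBS1 by 1.61, the tropomyosin gene TPM1 by 1.31 and the tenascin gene TNC by 1.18.

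Of 26 genes of plasminogen activation and matrix proteolysis 14 fell and 8 rose (median log2 change −0.39). Beside MMP1 and MMP3, MMP13 (−2.13) and the urokinase gene PLAU (−1.37) fell. Other proteases rose: the neutrophil collagenase gene MMP8 (4.61), the membrane-bound MMP15 (2.84) and MMP17 (2.14), and PLAT, the tissue plasminogen activator gene (1.32).

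Matrix and collagen genes were nearly balanced, with 16 of 33 higher and 13 lower (median log2 change 0.18). The collagen genes COL6A3 (−1.999), COL5A1 (−1.89) and COL1A1 (−1.46) fell, while the cartilage collagen gene COL11A1 (3.08), the basement membrane gene COL18A1 (1.76) and TIMP3, an inhibitor of matrix proteases (1.42), rose. LUM, which encodes the proteoglycan lumican, was at 22.8, 22.2 and 20.6 CPM in guide 1 cells and at 37.5, 36.9 and 37.5 CPM with SOX10. In guide 2 cells LUM was at 22.2, 25.3 and 22.4 CPM, and at 42.5, 43.3 and 44.2 CPM with SOX10. LUM rose without overlap (log2 change 0.83, SE 0.04, adjusted p = 6.41e-21), and all of these values lay above the 2.27 to 3.08 CPM of control cells. Of 26 integrin and adhesion genes 11 rose and 13 fell (median log2 change −0.21), with ITGA9 (3.14), CADM1 (2.66), NCAM1 (2.02) and ITGB8 (1.48) higher and ITGA2 (−1.58), ITGB4 (−1.53) and ITGA1 (−1.24) lower.

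Of 24 TGF-beta response genes 13 fell and 6 rose (median log2 change −0.34). LTBP2 (−1.44), ID1 (−0.75), the signal transducer gene SMAD3 (−0.61) and the inhibitor gene SMAD7 (−0.41) fell, and LTBP1 (2.14), the pseudoreceptor gene BAMBI (1.49) and PMEPA1 (0.93) rose. Of 24 targets of YAP and TEAD 12 rose and 4 fell (median log2 change 0.18). ANKRD1, a muscle ankyrin repeat protein gene, rose from 108 to 416 CPM and from 174 to 771 CPM (log2 change 2.05), against 12.5 CPM in control cells. CCN2 rose from 175 to 592 CPM and from 245 to 885 CPM, against 77.7 CPM in control cells, and IGFBP3 rose by 2.01.

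Of 23 NF-kB and cytokine genes 9 fell and 6 rose, with a median log2 change of −0.50. IL11 (ENSG00000095752; chr19:55364389-55370463), a cytokine of the interleukin 6 family, was at 139, 146 and 153 CPM in guide 1 cells and at 28.5, 32.3 and 31.7 CPM with SOX10. It was at 189, 193 and 197 CPM in guide 2 cells and at 41.4, 40.1 and 41.5 CPM with SOX10. All SOX10 libraries lay above the 26.0 to 27.0 CPM of control cells, and the fall was 4.72-fold (log2 change −2.24, SE 0.03, adjusted p = 6.33e-41).

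TNFAIP3, the ubiquitin-editing inhibitor of NF-kB, fell from 49.9 ± 1.57 to 13.7 ± 0.625 CPM and from 57.6 ± 0.840 to 14.7 ± 0.450 CPM (SD, n = 3, log2 change −1.92, adjusted p = 1.79e-36), and the monocyte chemokine gene CCL2 by 2.08. In control cells TNFAIP3 had a change of 0.32 with SOX10, and the difference of the effects passed (adjusted p = 3.9e-28). The adaptor gene TRAF1 (2.63), the cytokine gene IL1A (1.29) and the subunit gene NFKB1 (0.67) rose.

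Interferon-stimulated genes fell in 22 of 38 cases and rose in 1, with a median log2 change of −0.37. OASL fell from 6.55 ± 0.534 to 1.07 ± 0.262 CPM and from 7.94 ± 0.370 to 0.896 ± 0.294 CPM (SD, n = 3, log2 change −2.86, adjusted p = 1.75e-25), against 0.285 ± 0.0402 CPM in control cells. IFI27 (−3.37), IFI44L (−2.93), the virus tethering factor gene BST2 (−2.38), IFI44 (−1.11) and ISG15, a ubiquitin-like modifier gene (−0.84), fell, and GBP2 rose by 0.51. The transcription factor genes IRF9 (−0.02) and STAT2 (0.17) did not pass. With SOX10, ISG15 was at 3.70 and 4.29 CPM, IFIT1 at 8.92 and 9.25 CPM, and control cells were at 0.791 and 3.54 CPM for these genes. The count of risers was 2 without guide 1 replicate 1 or guide 2 replicate 1.

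Of 16 genes of class II antigen presentation 13 rose and 1, the promoter factor gene RFXAP (−0.25), fell (median log2 change 1.43). That fall was not called without guide 1 replicate 2, guide 2 replicate 1, replicate 3 of the guide 1 SOX10 group, or replicate 2 or 3 of the guide 2 SOX10 group. CIITA (ENSG00000179583; chr16:10866222-10943021), their master activator, was at 16.8, 15.3 and 16.6 CPM in guide 1 cells and at 66.3, 66.7 and 67.5 CPM with SOX10. In guide 2 cells CIITA was at 6.00, 6.45 and 5.52 CPM, and at 27.1, 29.1 and 27.4 CPM with SOX10. The groups did not overlap, all were below the 100 to 110 CPM of control cells, and the rise was 4.38-fold (log2 change 2.13, SE 0.03, adjusted p = 2.53e-38).

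HLA-DRA, a class II chain, rose from 121 ± 0.637 to 359 ± 12.0 CPM and from 55.9 ± 1.91 to 175 ± 3.27 CPM (SD, n = 3, log2 change 1.61, adjusted p = 5.77e-40), and the invariant chain gene CD74 rose by 1.53. Of 19 class I and peptide loading genes 5 rose and 6 fell (median log2 change 0.01): HLA-E (0.52) and HLA-B (0.45) rose, and the class I activator gene NLRC5 (−0.63) and the immunoproteasome genes PSMB8 (−0.56) and PSMB9 (−0.35) fell. Reads may be shared among the closely similar HLA genes, which makes their single values uncertain.

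Cell cycle genes changed by small amounts. Of 26 G2 and M phase genes 15 fell and 3 rose (median log2 change −0.13), led by the mitotic kinase gene AURKA (−0.36), the cyclin gene CCNB1 (−0.29) and BUB1 (−0.27), while MKI67 did not pass (0.09). Of 26 S phase genes 12 rose and 1 fell (median log2 change 0.09), with E2F1 (0.44) and the cyclin gene CCNE2 (0.43) higher. Of 16 genes of cell cycle entry 5 rose and 2 fell (median log2 change 0.06): CDK6 rose by 0.81 and CDK2 by 0.49, and CDKN1A, the p21 inhibitor gene, fell by 0.39. No member of these 3 lists was called at 2-fold. The count of fallen entry genes was 1 without any 1 of these libraries: guide 1 replicates 2 and 3, guide 2 replicates 1 and 3, guide 1 SOX10 replicates 1 and 2, guide 2 SOX10 replicates 1, 2 and 3, control replicate 2 and the control SOX10 replicates 1 and 2.

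Growth and stress lists had small median changes, and the MYC and p53 lists held more falls than rises, beside 18.6% of all genes called higher and 17.9% lower. MYC and ribosome biogenesis genes fell in 11 of 26 cases and rose in 1 (median log2 change −0.11), with the polyamine enzyme gene ODC1 at −1.05, MYC at −0.40 and the nucleolar methyltransferase gene FBL at −0.23. Of 22 p53 targets 10 fell and 3 rose (median log2 change −0.09), and GDF15, a stress cytokine gene, fell from 8.41 ± 0.295 to 1.26 ± 0.156 CPM and from 8.63 ± 0.673 to 1.78 ± 0.180 CPM (SD, n = 3, log2 change −2.51, adjusted p = 3.1e-27). Of 25 hypoxia and glycolysis genes 5 rose and 7 fell (median log2 change −0.05), and at least 2-fold 0 rose and 1 fell. The glucose transporter gene SLC2A1 (0.48) and HK2 (0.50) were higher and PKM (−0.22) was lower. Of 19 cholesterol synthesis genes 6 rose and 2 fell (median 0.09), and of 18 genes of the unfolded protein and integrated stress response 4 rose and 2 fell (median −0.05), with VLDLR at 1.31 and CEBPB at −0.67. The count of fallen MYC genes was 6 to 7 without guide 1 replicate 2 or 3 or without replicate 1 or 2 of the guide 1 SOX10 group.

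Of 24 SAGA subunits 8 fell and 2 rose, with a median log2 change of −0.03. KAT2B, an acetyltransferase subunit, rose from 36.4 ± 0.363 to 99.2 ± 5.51 CPM in guide 1 cells and from 32.8 ± 0.984 to 67.3 ± 3.06 CPM in guide 2 cells (SD, n = 3, log2 change 1.24, adjusted p = 2.45e-33). Its alternative subunit KAT2A fell by 0.27, ATXN7L2 fell by 0.42, and the deubiquitinase gene USP22 rose by 0.13. The bar plot of the gene lists sets these counts beside the share over all genes.

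**Figure D4:**
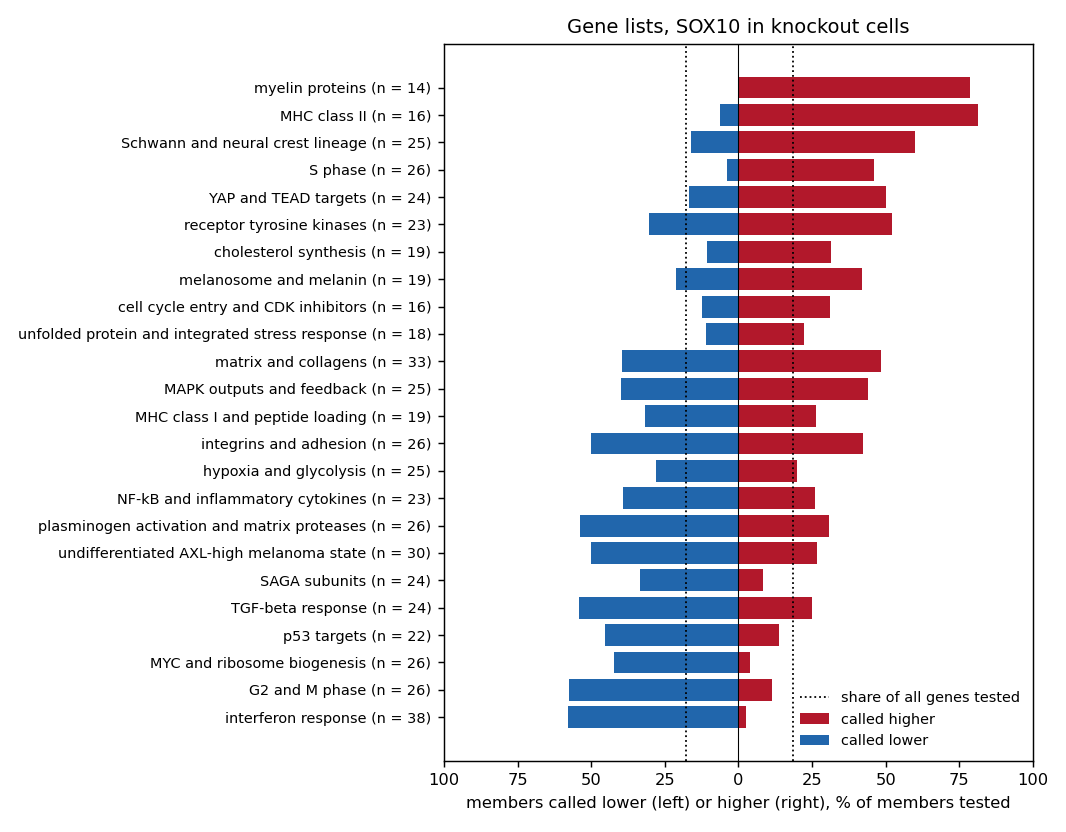
Share of tested members of each pathway, state or complex list called lower (blue, left) or higher (red, right) with SOX10 in knockout cells, in percent of the n given. Dotted lines mark 17.9% lower and 18.6% higher over all 21060 genes. Myelin, class II and Schwann lists extend furthest right of the lists plotted, and interferon, G2 and M phase lists furthest left; the marker lists of other cell types are not plotted.

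Markers of other cell types moved with SOX10 as well. The summed level of 8 endothelial markers was 5.29 to 6.36 CPM in the knockout lines and 31.1 to 38.2 CPM with SOX10, most of it KDR. Of 7 tested 3 rose and 3 fell. PECAM1 (−1.54), TIE1 (−1.22) and CDH5 fell, CDH5 from 0.905 to 0.336 CPM in guide 1 cells and from 1.16 to 0.592 CPM in guide 2 cells. Besides KDR, VWF (2.53) and TEK (1.86) rose and reached at most 1.23 and 1.63 CPM in a knockout library. The sum of 10 leukocyte markers was 5.88 to 9.57 CPM without and 18.3 to 21.8 CPM with SOX10, and LYZ, the lysozyme gene, made up nearly all of it (18.8 and 20.8 CPM). Of 5 leukocyte markers tested 1 rose and 2 fell, CD3D (−2.56) and ITGAM (−2.64), and the count of fallen members was 1 with DESeq2. For 10 fibroblast markers the sum was 36.5 to 46.0 CPM without and 48.4 to 58.2 CPM with SOX10, 3 of 9 tested rising and 6 falling, among them the fibroblast protease gene FAP (−2.03). For 12 epithelial markers it was 370 to 417 CPM without and 317 to 378 CPM with SOX10, 2 of 8 tested rising and 5 falling, KRT7 (−1.70) and SFN (−1.74) among the latter. Of 13 mitochondrially encoded transcripts MT-ND3 alone fell (−0.35, not called without guide 1 replicate 2 or replicate 3 of the guide 1 SOX10 group) and 0 rose, and their share of counts was 0.908% to 1.02% without and 0.857% to 1.21% with SOX10. The part of these markers in the other results was not tested.

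How far SOX10 ran against the knockout was read across guides, so that no library stood on both sides. With guide 1, 1953 genes were at least 2-fold higher than in control cells (9.27% of genes tested). Of these, 985 (50.4%) fell with SOX10 in guide 2 cells and 217 (11.1%) rose, where 24.0% of all genes tested fell. Of 921 genes at least 2-fold lower with guide 1 (4.37%), 669 (72.6%) rose with SOX10 in guide 2 cells and 39 fell, where 24.6% of all genes rose.

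The reverse reading gave similar shares. Of 2054 genes higher with guide 2 (9.75%), 1069 (52.0%) fell with SOX10 in guide 1 cells, where 21.7% of all genes fell. Of 1249 genes lower with guide 2 (5.93%), 848 (67.9%) rose with SOX10 in guide 1 cells, where 22.0% of all genes rose. Median log2 changes with SOX10 were −0.63 and −0.67 for the genes higher in the knockout and 1.33 and 1.00 for those lower in it. At a mean CPM of at least 1 the shares were 61.5% and 64.8% for the higher genes and 86.3% and 84.1% for the lower genes. The histograms of the SOX10 change for these genes show both groups shifted to the side opposite to the knockout.

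**Figure D5:**
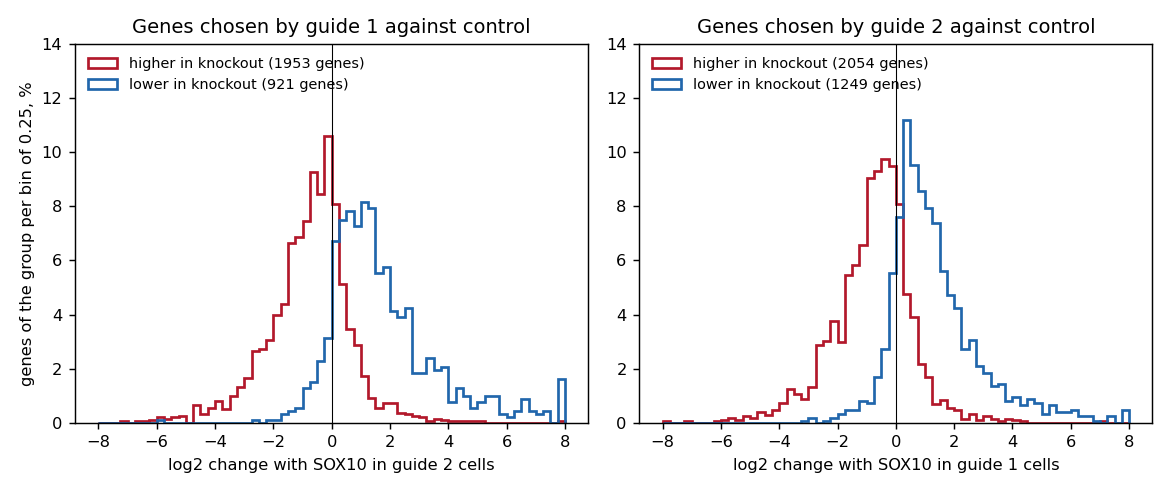
Log2 change with SOX10 in the other guide (horizontal axis, values beyond 8 placed at the ends) for genes at least 2-fold higher (red) or lower (blue) in the knockout than in control cells, as percent of the group per bin of 0.25 (vertical axis). Genes higher in the knockout lie mostly left of 0, with medians of −0.63 and −0.67, and genes lower in it mostly right, with medians of 1.33 and 1.00.

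The SOX10 effect differed between the guides for 528 genes (2.51%), 372 of them with a higher value in guide 2 cells (1.77%) and 156 with a lower one (0.741%). Among the 7689 called genes 366 differed, 253 with the larger change in guide 2 cells and 113 in guide 1 cells. Without guide 2 replicate 2 the count of differing genes was 810. GAS7, a growth arrest gene of neurons, rose from 32.4 ± 0.350 to 262 ± 3.63 CPM in guide 1 cells and from 9.97 ± 0.335 to 214 ± 5.92 CPM in guide 2 cells (SD, n = 3), a log2 change larger by 1.41 in guide 2 cells (adjusted p of the difference 8.13e-25).

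VGF, a secreted neuropeptide precursor gene, moved in opposite directions. It was at 44.3, 42.2 and 44.2 CPM in guide 1 cells and at 71.5, 71.5 and 68.6 CPM with SOX10, a rise. It was at 36.0, 32.7 and 32.3 CPM in guide 2 cells and at 22.9, 23.5 and 21.3 CPM with SOX10, a fall. Neither pair of groups overlapped, and the difference was −1.27 on the log2 scale (adjusted p = 5.68e-19). The fibronectin gene FN1 was at 219 ± 8.08 and 228 ± 6.15 CPM without and with SOX10 in guide 1 cells (log2 change 0.05), and at 171 ± 5.49 and 304 ± 12.4 CPM in guide 2 cells (0.83, adjusted p of the difference 5.92e-16).

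The same overexpression in control cells, where only 1 contrast had to pass, changed 7245 genes (34.4%, with 17.3% higher and 17.2% lower). By that looser rule the knockout shares were 43.7% with guide 1 alone and 48.6% with guide 2 alone. The control contrast shares no library with the knockout contrast. The effect differed between knockout and control cells for 7005 genes (33.3%, with 18.1% higher and 15.1% lower in knockout cells). Of the 2055 genes changed at least 2-fold in knockout cells, 1045 changed more in knockout than in control cells in the direction of the call and 87 changed less. These genes were chosen by their effect in the same knockout libraries, which favours a larger effect there, so the split is only a description. SOX10 itself had a log2 change of 0.35 in control cells, from 354 ± 12.2 to 452 ± 1.57 CPM (SD, n = 3), against 2.15 in knockout cells, so the rise in its own transcript was not matched between the backgrounds. DCT had log2 changes of 7.48 and 7.26 in knockout and control cells, a difference of 0.22 (SE 0.23, adjusted p = 0.53). EGFR had log2 changes of −1.56 and −1.55 (SE of the difference 0.06, adjusted p = 0.97). ERBB3 had 2.66 in knockout and 0.23 in control cells (adjusted p of the difference 8.84e-35), and CDH19 had 3.82 and 0.53 (2.68e-38). IGFBP3 had opposite signs, at 2.01 in knockout and −0.66 in control cells (1.98e-37).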

How the data were processed

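Poly(A) RNA from 18 libraries was sequenced after KAPA stranded library preparation, per the labels' protocols. The authors deposited whole-number read counts per gene, and HISAT2, HTSeq and hg38 are named per the submitters' processing notes. Which annotation, tool versions and strand option the counting used is not given in the sources used here, so reads of overlapping and antisense genes cannot be told apart, and near-identical families (HLA genes, pseudogene copies) may share reads. Gene positions and types came from GENCODE 29.

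All 18 libraries, in 6 groups of 3, were fitted together with edgeR 4.0.16 in R 4.3.3 (low-count filter by group, TMM scaling, robust quasi-likelihood test, Benjamini-Hochberg adjustment over all 21060 genes), with no covariate. The fit was tested on simulated data, with a pass criterion that was set after the outcome was seen and so is no independent check. Libraries of the knockout lines held 58.6 to 79.9 M counts. The members and gene lists were chosen with earlier results of these data known. Named genes were SOX10 and TADA2B, and the 12 largest protein-coding rises and falls past 2-fold with separate libraries, at least 1 CPM in the higher group and 10 counts in the lower. They also included up to 4 called members with the lowest p per list, up to 4 genes with 3 counts or fewer in the lower group and 0.5 CPM or more in the higher, the 4 lowest adjusted p between guides and up to 3 promoters; other genes named in the text were chosen after their values were seen. Alternatives were DESeq2 1.42.0, RLE and library-size scaling, a mean of at least 1 CPM, no filter, knockout groups alone, a replicate block, agreement of guides by sign, and leaving out each library. Some named genes are not reported here.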

Additional observations from a re-analysis of the deposited data

Results flagged for a closer look

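Among the named genes, these had a SOX10 effect in knockout cells that differed from the effect in control cells at an adjusted p under 0.05 for the difference itself (edgeR's quasi-likelihood test over all genes). Values are the effect in knockout cells minus the effect in control cells, on the log2 scale. Most named genes were chosen by their effect in the same knockout libraries, which favours a larger effect in knockout cells. Groups held 3 libraries, so a search for single libraries far from their group was not made. The genes are grouped by the signs of the 2 effects, with no threshold on the effect in control cells. That effect was close to none for some genes, such as NFKB1 (0.032) and ATF3 (0.028). Genes with a positive log2 change in both backgrounds, the larger in knockout cells, were COL9A1 (5.99), MUC7 (5.58), KDR (4.90), ITIH6 (4.49), FAT3 (4.41), B3GALT2 (4.07), ITIH5 (4.02), CD200 (3.84), ATP10B (3.34), CDH19 (3.29), RXRG (3.27), GAS7 (2.92), PMP2 (2.73) and ACAN (2.68). Next in this order were ERBB3 (2.44), VWF (2.33), SOX10 (1.80), TEK (1.46), CIITA (1.27), CADM1 (1.19), RGS8 (1.18), CD74 (1.08), HLA-DRA (1.03), TPM1 (0.93), PLAT (0.90), DCN (0.88), ITGB8 (0.84) and LTBP1 (0.67). They were followed by HLA-DPA1 (0.65), CDK6 (0.65), NFKB1 (0.64), PMEPA1 (0.56), ST3GAL6 (0.53), VLDLR (0.52), ATF3 (0.48), LATS2 (0.46), SLC2A1 (0.41), TP53I3 (0.41), AMOTL1 (0.40), TNC (0.32), UGT8 (0.29) and TYMS (0.28). Then came ITGAV (0.24) and SREBF2 (0.18).

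The next genes had a negative log2 change in both backgrounds, by sign alone, with the larger effect in knockout cells. In control cells the effect was close to none for some, such as PSMB8 (−0.00023) and GDF15 (−0.054). The genes were ITGA1 (−0.11), LYAR (−0.11), FBL (−0.13), SF3B5 (−0.17), TOP2A (−0.17), PKM (−0.18), AURKA (−0.21), KAT2A (−0.24), DUSP4 (−0.27), CEBPB (−0.32), NT5E (−0.41), ODC1 (−0.48), PSMB8 (−0.56) and NLRC5 (−0.58). Next in this order were IL11 (−0.65), COL5A1 (−0.85), STC1 (−1.04), CDH11 (−1.37), CSMD2 (−1.96), MMP1 (−2.28), GDF15 (−2.45) and MMP3 (−3.33). Genes whose effects had 1 sign and were smaller in knockout cells were KRT7 (0.70), IL1RL1 (0.52), PMAIP1 (0.28), MET (0.12), HLA-B (−0.11), TRAF1 (−0.36), GPNMB (−0.66) and KAT2B (−0.95).

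Genes whose effects had opposite signs in the 2 backgrounds, with no threshold set here on either effect alone, were KRT14 (3.34), IGFBP3 (2.67), LYZ (2.13), EPHA4 (1.79), EGR3 (1.70), TIMP3 (1.46), FN1 (1.07), CCNE2 (0.93), CCND1 (0.91), IGF1R (0.87), CDK2 (0.73), CDC6 (0.44), HMGCS1 (0.32) and SRM (−0.34). Next in this order were MT-ND3 (−0.52), CDKN1A (−0.63), MITF (−1.66), TNFAIP3 (−2.23), BST2 (−2.62), FAP (−3.70) and IFI27 (−4.001).

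VGF rose in guide 1 cells and fell in guide 2 cells, and the mean of these effects differed from the effect in control cells by −0.48.

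The effect of SOX10 also differed between the guides, given as guide 2 minus guide 1 on the log2 scale. These genes were ATP10B (1.76), KRT14 (1.75), GAS7 (1.41), FAT3 (1.14), CDH19 (1.13), KDR (0.90), LYZ (0.81), FN1 (0.78), IGFBP3 (0.71), SOX10 (0.70), ERBB3 (0.60), IL1RL1 (0.55), EPHA4 (0.52) and ITGB8 (0.44). Next in this order were ATF3 (0.35), DSP (0.25), NT5E (0.24), MET (0.23), TIMP3 (0.16), TNC (−0.21), HLA-B (−0.31), MITF (−0.31), HK2 (−0.32), UGT8 (−0.37), HLA-E (−0.38), KAT2B (−0.41), VGF (−1.27) and DCT (−2.18).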

How the results depend on the processing

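No result reversed under any alternative run, and 0 of the 7689 calls became a call in the opposite direction. Between 6445 and 7652 of the calls were kept. The TADA2B log2 change in knockout cells was −0.0773 with DESeq2, −0.0772 with RLE scaling and −0.0771 with library-size scaling, each past the threshold, and −0.0903 to −0.0433 with single libraries left out. Shares of knockout genes that SOX10 moved back (higher with guide 1, lower with guide 1, higher with guide 2, lower with guide 2) were 61.5%, 86.3%, 64.8% and 84.1% at a mean of at least 1 CPM, with 618 rises and 357 falls past 2-fold since fewer genes were tested. Without a filter they were 45.7%, 67.1%, 46.5% and 62.8%. With library-size scaling the first 3 were 47.8%, 75.8% and 48.9%. With single libraries left out the 4 shares ranged over 46.6% to 51.8%, 68.9% to 72.9%, 47.7% to 53.03% and 62.7% to 69.1%. Genes whose effect differed between guides numbered 365 to 810, with 810 without guide 2 replicate 2. Guides of 1 sign in place of 2 separate calls gave 5867 genes called higher by SOX10 in knockout cells and 5872 genes called lower by SOX10 in knockout cells. The cause of these shifts, other than the number of genes tested, was not tested.

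Same-numbered libraries of the knockout groups correlated at −0.02 to 0.07 in their deviations from group means. These deviations, taken over all genes tested, also hold counting error, so whether the numbers pair the samples is not settled. The replicate block gave 3970 genes called higher by SOX10 in knockout cells and 3835 genes called lower by SOX10 in knockout cells, 616 genes that differed between guides and 7213 between backgrounds, with shares of 50.4%, 72.7%, 52.1% and 67.4%. With knockout groups alone, results that need control cells could not be had. Depth limits genes near 0 counts, where folds rest on 1 to 3 reads.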

Other observations

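Noncoding genes also changed, and those named here were chosen after their values were seen. Of 1499 lincRNA genes tested 142 rose and 90 fell at least 2-fold (15.5%), of 1378 antisense genes 78 rose and 31 fell (7.91%), and of 14634 protein-coding genes 880 rose and 660 fell (10.5%). RMEL3, a melanoma-associated noncoding gene annotated as antisense, rose from 1.73 to 16.3 CPM in guide 1 cells and from 0.713 to 10.3 CPM in guide 2 cells (log2 change 3.55, SE 0.07), against 19.3 CPM in control cells. LINC02915 rose from 2.31 to 25.01 CPM and from 1.10 to 26.3 CPM (4.01, SE 0.06), against 5.25 CPM in control cells. H19, an imprinted noncoding gene, fell from 4.53 to 1.07 CPM and from 4.81 to 1.01 CPM (−2.16, SE 0.09), against 4.49 CPM in control cells.

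Constant segments of the T cell receptor beta locus were read in the knockout lines and fell with SOX10. TRBC2 went from 8.61 to 0.291 CPM in guide 1 cells and from 10.6 to 0.493 CPM in guide 2 cells, and TRBC1 from 2.35 to 0.0968 CPM and from 2.68 to 0.0991 CPM. TRBC1 and TRBC2 are near-identical copies and may share reads. Among the leukocyte markers, CD3E had 4 counts over all 12 knockout libraries and CD3D had 185. CD3D fell with SOX10 as well, from 0.299 to 0.0437 CPM in guide 1 cells and from 0.397 to 0.0723 CPM in guide 2 cells. Among genes near 0 without SOX10, LRP2, the endocytic receptor megalin, was at 1.82 and 2.23 CPM with it, ICOS, a costimulatory receptor of T cells, at 0.721 and 1.37 CPM, and the macrophage scavenger receptor gene CD163 at 0.708 and 0.655 CPM.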
